A study of Capra hircus with 12 samples.

Results

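The comparison of E65 with E45 covers the whole span of the study, from embryonic skin at day 45 to skin at day 65, and reads the 6 RNA-seq libraries of these end stages. The members are the genes with a mean RPKM (reads scaled by gene length and library size) of at least 0.1 over the 9 RNA-seq libraries of the series, which were 16604 of the 20486 genes in the deposited table. The other 3882 genes fell below this mean and were not tested. Skin was taken from the mid flank of Inner Mongolia cashmere goat embryos, with 3 embryos at E45 and 3 at E65, and each embryo gave its own library of polyadenylated RNA. No embryo carried an allele or a treatment, and the embryos were chosen so that relatives were avoided. A further 3 embryos at E55 were sequenced in the same way. They entered the fit only for the estimate of the spread, but they also count in every mean over the 9 libraries. Their values are given beside those of the end stages.

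In cashmere goats the coarse guard hair grows from primary hair follicles and the fine undercoat from secondary follicles. A follicle begins as a thickening of the embryonic epidermis, the placode, above a condensate of dermal cells, and signals pass between both layers while the follicle grows down. During the same period the epidermis becomes layered and starts to keratinise, and the dermis fills with collagen. Whole skin therefore holds keratinocytes and fibroblasts beside vessels, nerve endings, pigment cells and whatever underlying tissue is taken with the piece. In such bulk samples fewer cells of a type and less RNA per cell cannot be told apart.

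The table gives each gene an identifier and a chromosome, with no symbol and no position. Of its 20486 identifiers, 0 matched any of the 28911 genes of the RefSeq annotation of the goat assembly ARS1.2, so the genes are described here by their level, direction, chromosome and pattern over the embryos, and 4 are given by identifier. For the same reason the label of the tissue as skin was not checked against markers, and gene lists of pathways and cell types were not applied. The identifiers were matched to this annotation only. The values hold no read counts, and as the table gives no gene lengths, the number of reads behind a single RPKM value is unknown. Whole reads could not be recovered from the low values. After correction for library size, 1479 low genes were examined. Of these, 0.203% had values that were all whole multiples of 1 step, within a tolerance of 0.1. The library sizes were the uniquely aligned reads that the study lists, and the outcome depends on these numbers, which were not checked.

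The E45 embryos stood apart from each other more than the E65 embryos did. Over all tested genes, the median SD of log2(RPKM + 0.1) was 0.30 among the 3 E45 embryos and 0.23 among the 3 E65 embryos. Genes whose highest and lowest E45 embryos lay at least 8-fold apart made up 4.48% of the tested genes, against 1.11% for the E65 embryos. E45-2 was the highest of its stage for 47.8% of the tested genes, and E45-1 was the lowest for 52.2%. At E65 no embryo was the highest for more than 35.3% of the genes.

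Fewer genes were seen at E65 than at E45. Genes above 0 RPKM numbered 17857, 18389 and 18081 in the E45 embryos and 17572, 17700 and 17723 in the E65 embryos. The stages thus did not overlap. These counts were not adjusted for the depth of sequencing. Within E45 and within E65 they followed the order of the uniquely aligned reads that the study lists. The means were 18109 ± 267 (SD, n = 3) at E45 and 17665 ± 81.4 (SD, n = 3) at E65, and a two-sided exact permutation test gave p = 0.1, the smallest that 3 against 3 allow. At the upper end of the scale, genes of at least 100 RPKM numbered 917 ± 49.7 (SD, n = 3) at E45 and 958 ± 9.02 (SD, n = 3) at E65, and here the stages overlapped (exact permutation test, p = 0.3).

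RNA was also held by fewer genes at E65. The 100 most abundant genes of an embryo took 29.6%, 24.6% and 26.3% of its summed RPKM in E45-1, E45-2 and E45-3. In E65-1, E65-2 and E65-3 they took 30.3%, 31.7% and 30.0%. The share was higher in every E65 embryo than in any E45 embryo (exact permutation test, two-sided, p = 0.1), although E45-1 came close to E65-3. The median RPKM over all listed genes went the other way, from 4.15 ± 0.396 (SD, n = 3) to 3.31 ± 0.185 (SD, n = 3). Of the 100 most abundant genes of each stage, 79 were shared, or 79.0% of each list. Among the 21 that were in the list of E65 alone, 9 were increased DEGs and 0 were decreased. Of the 21 in the list of E45 alone, 7 were decreased and 0 increased. A gene in the list of a single stage ranked higher at that stage, so the directions and both counts of 0 largely follow from this choice. Over all tested genes, 4.90% were increased and 9.21% decreased DEGs.

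A differentially expressed gene (DEG) was a gene that limma gave an adjusted p under 0.05 and whose log2 fold change was 1 or more in either direction, on the scale of log2(RPKM + 0.1). By this rule 813 genes were increased and 1530 decreased in E65 vs. E45, which is 4.90% and 9.21% of the tested genes, and 14.1% together. The fold changes understate the change of genes with low values because of the added 0.1. The median log2 fold change was 1.77 among the increased DEGs, with a median standard error of 0.34, and -2.06 among the decreased DEGs, with a median standard error of 0.43. Over all tested genes the median was -0.07. Among the increased DEGs, 480 changed by less than 2 on the log2 scale, 268 by 2 to 4 and 65 by 4 or more. Among the decreased DEGs these classes held 721, 643 and 166 genes. The excess of decreased genes depended on how the samples were scaled to each other. With quantile normalization 1291 genes were increased and 953 decreased, and with median scaling, which moved the median of all genes from -0.07 to 0.11, the counts were 1097 and 1279. The number of calls also depended on the pseudocount: with 1 in place of 0.1 there were 632 increased and 968 decreased genes.

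**Figure D1:**
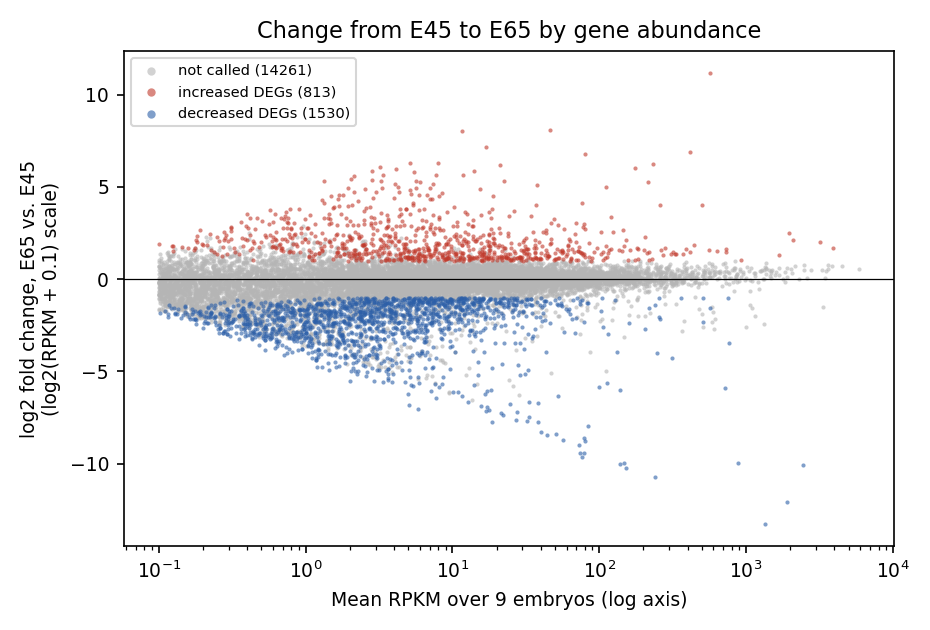
Each point is 1 of the 16604 tested genes, with its mean RPKM over the 9 embryos on a log axis and its log2 fold change of E65 vs. E45 on the log2(RPKM + 0.1) scale. The 813 increased DEGs (red) reach 11.15 and the 1530 decreased DEGs (blue) reach -13.26, and the lower edge slopes, since the added 0.1 bounds the change of a gene that falls to 0.

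Nearly all DEGs separated the stages embryo by embryo, which largely follows from their choice, as the call used the same E45 and E65 values. All 3 E65 values lay above all 3 E45 values in 812 of the 813 increased DEGs, and below them in 1522 of the 1530 decreased DEGs. Such a lack of overlap was common among all tested genes, at 37.8%, with 15.7% higher and 22.1% lower at E65. These shares also turned with the scaling: 4618 genes lay higher and 2697 lower with median scaling, against 2602 and 3670 on the values as deposited. A total of 975 genes had an adjusted p under 0.05 in limma and a smaller change than a DEG, with 546 of them higher and 429 lower at E65.

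The increased DEGs took a growing share of the RNA. Together they held 2.94%, 3.50% and 3.20% of the summed RPKM of the tested genes in E45-1, E45-2 and E45-3, and 10.8%, 10.9% and 9.98% in E65-1, E65-2 and E65-3. The E55 embryos lay between, with 7.64% in E55-1 against 4.54% in E55-2 and 4.77% in E55-3. The decreased DEGs held 12.3% in E45-1, 5.76% in E45-2 and 5.33% in E45-3, and 1.18%, 0.909% and 1.22% in the E65 embryos. At E55 their share was 2.45%, 8.25% and 3.85% in the embryos 1 to 3. The genes were chosen from the E45 and E65 values, so that the end stages had to differ in these sums. Within stages, E45-1 and E55-2 lay above the other embryos in the share of the decreased DEGs.

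**Figure D2:**
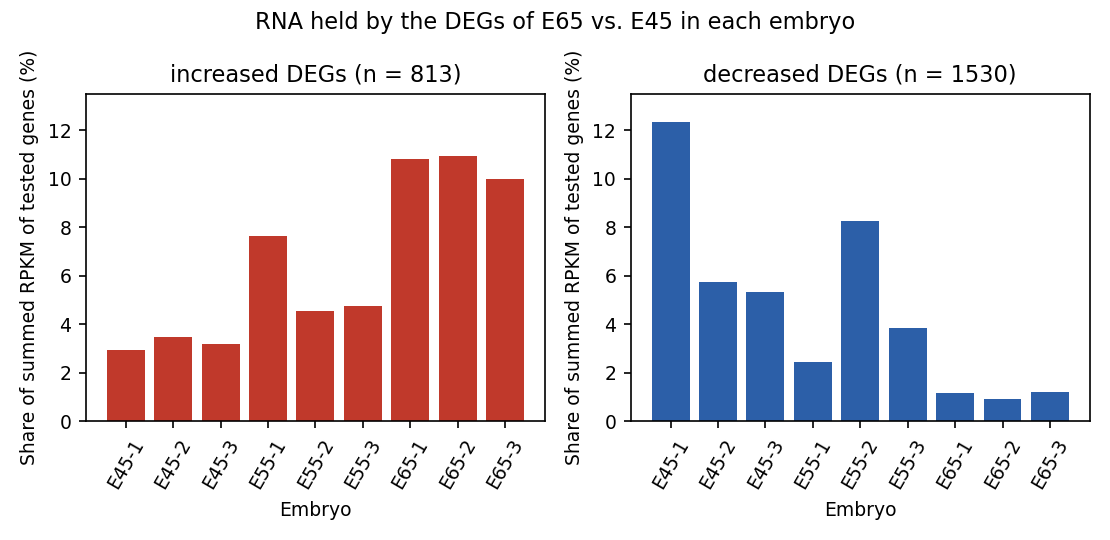
Bars show the share of the summed RPKM of the tested genes (percent, from 0) that was held in each of the 9 embryos by the 813 increased DEGs (left) and the 1530 decreased DEGs (right). The increased DEGs rise from 3.50% or less in the E45 embryos to 9.98% or more in the E65 embryos, and the decreased DEGs stand out in E45-1 (12.3%) and E55-2 (8.25%).

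Some of the increased DEGs were among the most abundant genes at E65. The most abundant increased DEG at E65, a gene on chromosome 13, had 1809, 2373 and 2224 RPKM in the E45 embryos and 6826, 6817 and 7049 RPKM in the E65 embryos, which made it the gene with rank 2 at E65. The stages were far apart in relation to the spread of either, by a log2 fold change of 1.70 ± 0.20 (standard error; limma adjusted p = 0.00111). Next came a gene on chromosome 12, whose mean rose from 1243 ± 80.9 (SD, n = 3) to 4972 ± 405 RPKM (SD, n = 3). It had reached 4920.1 RPKM in E55-1 but 2344 and 2601 RPKM in E55-2 and E55-3. The gene that followed, on chromosome 2, had a mean of 652 ± 30.5 (SD, n = 3) at E45 and of 3674 ± 494 RPKM (SD, n = 3) at E65. Its log2 fold change was 2.49 (limma adjusted p = 0.000562). These 3 genes were abundant at E45 already. The 10 most abundant increased DEGs included 1 with a mean under 1 RPKM at E45, and that was also the gene with the largest increase of all.

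This gene, listed as goat_GLEAN_10004749_gene on chromosome 19, had 0.36, 0.05 and 2.57 RPKM in the E45 embryos and 1757, 1844 and 673 RPKM in E65-1, E65-2 and E65-3. Every E65 value was far above the highest E45 value, and the E55 embryos lay between, at 490.4, 264 and 54.7 RPKM. The log2 fold change was 11.15 ± 1.05 (standard error; limma adjusted p = 0.000548), and over the 20 other settings tried the adjusted p ran from 0.00039 to 0.00432. The gene listed as GOAT_ENSP00000339251_gene on chromosome 18 followed, with 0.18, 0 and 1.53 RPKM at E45 and 144, 120.4 and 51.4 RPKM at E65. It too was between these levels at E55, with 67.8, 18.7 and 9.84 RPKM, and its log2 fold change was 8.07 ± 0.99 (standard error; limma adjusted p = 0.00119, and from 0.000911 to 0.00801 over the 20 other settings). In both genes embryo 3 was the highest at E45 and the lowest at E55 and at E65.

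The low values of E65-3 and the high values of E55-1 were shared by other large increases. Among the 50 largest increases that had a mean of 1 RPKM or more and separated the stages in every embryo, with log2 fold changes from 4.52 to 11.15, E65-3 was the lowest E65 embryo in 43 and E55-1 the highest E55 embryo in 42. Their median level was 0.288 RPKM at E45 and 13.8 RPKM at E65. Chromosomes 19 and 3, which had the most tested genes (968 and 964 of 16604), held 7 of the 50 each. Over all 813 increased DEGs, E55-1 was the highest of its stage in 83.4%, against 43.5% over all tested genes, and E65-3 was the lowest of its stage in 47.8%, against 27.2%.

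The largest decreases had another shape. The gene listed as GOAT_ENSBTAP00000022772_gene on chromosome 6 had 6481, 1584 and 166 RPKM in E45-1, E45-2 and E45-3, and 0, 0 and 0.08 RPKM at E65. At E55 it had 3817 RPKM in E55-2, but 0.04 and 2.56 RPKM in E55-1 and E55-3. Its level thus differed more within E45 and within E55 than most genes differed between stages. The log2 fold change was -13.26 ± 3.04 (standard error; limma adjusted p = 0.0166), and the adjusted p ran from 0.000603 to 0.0534 over the 20 other settings, with the call lost in 2, without E65-1 (0.0534) and without E65-2 (0.0523), where the log2 fold change was -13.12. The standard error, which all 9 embryos set, was 1.37 without E55-2 (limma adjusted p = 0.00107) and 1.15 with the 6 embryos of E45 and E65 alone (limma adjusted p = 0.000603). The gene listed as GOAT_ENSBTAP00000022763_gene, also on chromosome 6, had 9504, 1635 and 249 RPKM at E45, 0.88, 5720.3 and 4.36 RPKM at E55 and 0.22, 0.32 and 0.26 RPKM at E65. It showed the same order of embryos, with E45-1 and E55-2 the highest, and a log2 fold change of -12.07 ± 2.71 (standard error; limma adjusted p = 0.0152, from 0.000501 to 0.0503 over the other settings). The size of both falls depended on the pseudocount. With 0.01 the log2 fold changes of GOAT_ENSBTAP00000022772_gene and GOAT_ENSBTAP00000022763_gene were -15.81 and -12.49, and with 1 they were -10.19 and -10.28. The call of GOAT_ENSBTAP00000022763_gene was lost without E65-1 (limma adjusted p = 0.0503), where the log2 fold change was -11.98.

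Of the 50 largest decreases chosen in the same way, 41 had E45 embryos at least 8-fold apart. E45-1 was the highest E45 embryo in 35 of the 50 and E55-2 the highest E55 embryo in 36 of the 50. The decreased DEGs as a whole differed from this: over all 1530, E45-1 was the highest E45 embryo in 26.4% and the lowest in 54.0%, near the 23.3% and 52.2% over all tested genes. E45-3 was the highest in 48.1%, against 28.1% over all tested genes, and E55-2 was the highest E55 embryo in 41.8%, against 30.6%. The 5 most abundant decreased DEGs at E45, on chromosomes 1, 6, 6, 21 and 1, were all highest in E45-1 and E55-2 within their stages. The first, on chromosome 1, had 11764, 2010.0 and 301 RPKM in E45-1, E45-2 and E45-3, and 8061 RPKM in E55-2, and at most 2.91 RPKM at E65. The sixth, on chromosome 4, was the first whose E45 embryos were alike. It had 711, 1228 and 917 RPKM at E45 and 412, 440.1 and 539 RPKM at E65, and its log2 fold change was -1.01 ± 0.21 (standard error; limma adjusted p = 0.00985). A gene on chromosome 18 fell further, from 924, 622 and 1240 RPKM at E45 to 197, 17.4 and 153 RPKM at E65, and had 888 to 1718 RPKM in the E55 embryos. Its log2 fold change was -3.47 ± 0.78 (standard error; limma adjusted p = 0.015).

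The decreased DEGs were therefore divided by their spread among the E45 embryos, a division made after their values had been seen. In 1356 of them, 88.6%, the E45 embryos lay within 8-fold of each other, and the median log2 fold change was -1.94. Their median levels were 3.97, 5.03 and 5.46 RPKM in the E45 embryos, 1.77, 2.62 and 2.33 RPKM in the E55 embryos and 1.05, 0.82 and 1.03 RPKM in the E65 embryos. In this larger part of the decreased DEGs the median was highest in the 3 E45 embryos, lower in all E55 embryos and lowest in all E65 embryos. In the other 174, 11.4%, the E45 embryos were 8-fold or more apart, and the median log2 fold change was -4.08.

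These 174 genes were divided by the E45 embryo in which they were highest. The order of the E45 levels in each group follows from this division. The division did not use the E55 levels, but the calls of the genes did, through the estimate of the spread. In 44 of them E45-1 was the highest E45 embryo, with a median of 144 RPKM against 35.2 in E45-2 and 3.87 in E45-3. E55-2 was the highest E55 embryo in 43 of the 44, with a median of 94.4 RPKM, while E55-1 and E55-3 had medians of 0.065 and 0.315 RPKM. The 44 genes together took 8.15% of the summed RPKM of all genes in E45-1 and 4.98% in E55-2, against 1.57% in E45-2, 0.219% in E45-3 and at most 0.0111% in each of the other 5 embryos. They thus made up most of what set E45-1 and E55-2 apart among the decreased DEGs. Without E45-1, 2 of the 44 were called as decreased, without E45-2 3 were, and without E45-3 all 44. The median log2 fold change of the 44 was -7.41 with all embryos (median standard error 2.16), -6.07 without E45-1 (2.36) and -7.32 without E45-2 (2.60), and all 44 kept a fall of at least 1 on the log2 scale in both fits, also where the call was lost. For GOAT_ENSBTAP00000022772_gene and GOAT_ENSBTAP00000022763_gene, whose calls held without E45-1 (limma adjusted p = 0.0431 and 0.0402), the log2 fold changes were then -12.04 ± 3.48 and -10.78 ± 3.05 (standard error). Calls were also lost among the 1356 decreased DEGs whose E45 embryos were within 8-fold, of which 1109, 895 and 903 were called without E45-1, E45-2 and E45-3. The median log2 fold change of the 1356 was -2.03, -1.89 and -1.84 in these fits, against -1.94 with all embryos. In 1292, 1322 and 1291 of them it stayed below -1, so most of the lost calls came without a loss of the fall.

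In another 101 genes E45-3 was the highest E45 embryo. Their median level was 7.97 RPKM in E45-3 and 4.59 in E45-2, but 0.37 in E45-1. At E55 the medians were 0.13, 0.21 and 0.2 RPKM, and at E65 0.09, 0.08 and 0.08. The median over these genes was thus already low in every E55 embryo. Their share of the summed RPKM was 0.627% in E45-3, 0.355% in E45-2 and 0.0302% in E45-1. All 101 were called as decreased without E45-1, 28 without E45-2 and 32 without E45-3. Their median log2 fold change was -3.58 with all embryos, -4.79 without E45-1, -3.16 without E45-2 and -2.84 without E45-3. In each of these fits all 101 stayed below -1, also where the call was lost. In the remaining 29 genes E45-2 was the highest, with a median of 6.69 RPKM against 0.97 in E45-1 and 0.69 in E45-3, and 20 of them were called without E45-1, 7 without E45-2 and 18 without E45-3. The median log2 fold change of the 29 was -3.39 with all embryos. It was -4.18 without E45-1, -2.58 without E45-2 and -4.24 without E45-3, and all 29 stayed below -1 in each fit. Which cells these groups of genes came from, and the part of the tissue taken from each embryo, was not tested.

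**Figure D3:**
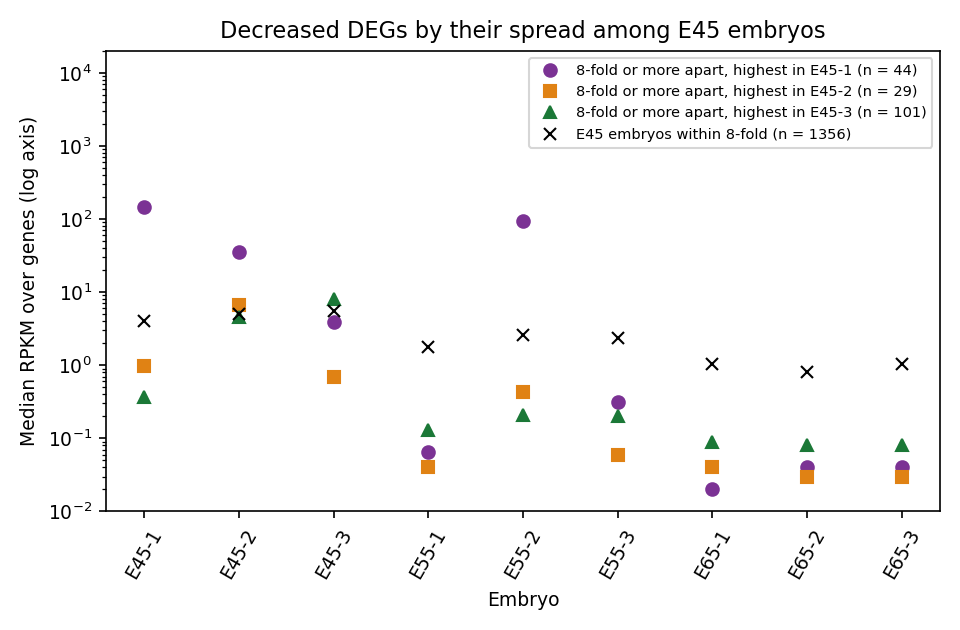
Points show, for each of the 9 embryos, the median RPKM (log axis) over the decreased DEGs whose E45 embryos lay within 8-fold (crosses, 1356 genes) and over those 8-fold or more apart with E45-1 (circles, 44), E45-2 (squares, 29) or E45-3 (triangles, 101) the highest. The circles stand at 144 RPKM in E45-1 and 94.4 RPKM in E55-2 and are at 0.04 RPKM or lower in the E65 embryos, whereas the crosses go from 5.46 RPKM or less at E45 to about 1 RPKM at E65.

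In the increased DEGs the E45 embryos were at least 8-fold apart in 0.984% and the E65 embryos in 1.11%, which is a description only, as the test itself favours genes with little spread within stages. Their median SD on the log2 scale was 0.37 within E45 and 0.25 within E65, and it was 0.51 within E55. Among the decreased DEGs it was 0.56 within E45, 0.39 within E55 and 0.35 within E65.

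The number of calls changed when embryos were left out, which also leaves fewer replicates in the fit. Leaving out 1 of the 9 embryos at a time gave 585 to 808 increased and 897 to 1783 decreased DEGs. The decreased count was 989 without E45-2 and 897 without E65-2, each less than the full count by over 1.5 times, and 1783 without E45-1. Without both E45-1 and E55-2, the embryos with the high levels of the 44 genes, 719 genes were increased and 1999 decreased. Of the 813 increased DEGs 491 (60.4%) were called in the same direction in all 9 of these fits, and of the 1530 decreased DEGs 715 (46.7%). The median log2 fold change of the genes so kept was 2.07 and -2.33, and in 28 of the 715 the E45 embryos were at least 8-fold apart.

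Increased and decreased DEGs came from different levels of abundance. On the values as deposited, decreased DEGs made up 76.2% of the DEGs with a mean of 0.1 to 1 RPKM over the 9 embryos (362 decreased and 113 increased) and 69.9% of those with 1 to 10 RPKM (848 and 366). From 10 to 100 RPKM the directions were nearly even, with 287 decreased and 276 increased, and at 100 RPKM and above more genes were increased (58) than decreased (33). The median log2 fold change of all genes of a class followed, from -0.46 in the lowest through -0.14 and 0.02 to 0.10 in the highest class. Median scaling kept this order, with 64.7% decreased in the lowest and 24.7% in the highest class, while quantile normalization, which gives all samples 1 distribution, turned the lowest class to 27.9% decreased and left 40.2% in the highest.

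**Figure D4:**
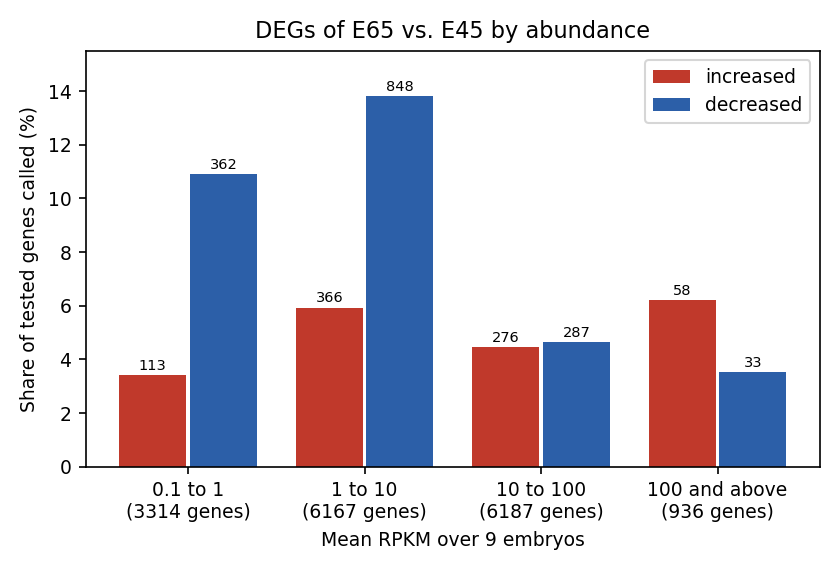
Bars show the share of tested genes (percent, from 0) that were increased (red) or decreased (blue) DEGs in E65 vs. E45, for 4 classes of mean RPKM over the 9 embryos, with the number of DEGs above each bar. On the values as deposited the decreased share is highest at 1 to 10 RPKM (13.8%), and increased genes outnumber decreased ones only at 100 RPKM and above.

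Few genes passed between very low and clear levels. Genes that were under 0.1 RPKM in all 3 E45 embryos and at least 1 RPKM in all 3 E65 embryos numbered 9, of which 9 were DEGs. In the opposite direction there were 45, of which 39 were DEGs. Genes listed at 0 in all E45 embryos and above 0 in all E65 embryos numbered 22, with 2 of them at 1 RPKM or more in each E65 embryo. For the reverse the numbers were 88 and 7. As the values are rounded to 2 decimals, a listed 0 does not show that a gene was silent.

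Every one of the 30 chromosomes in the table, 29 autosomes and X, held DEGs of both directions. On the values as deposited the increased share of the tested genes ran from 2.33% on X to 7.37% on chromosome 3, and the decreased share from 5.42% on chromosome 25 to 13.8% on chromosome 27. Chromosome 3 had more increased (71) than decreased genes (62). It was the only such chromosome on these values, but there were 7 with median scaling and 22 with quantile normalization. Chromosome 3 also had the lowest decreased share of DEGs with median scaling (34.9%) and with quantile normalization (26.3%). On X, 70 genes were decreased and 13 increased, or 84.3% decreased, closely followed by chromosome 6 with 61 and 12, or 83.6%. Chromosome 27 had the highest decreased share with median scaling (74.3%) and with quantile normalization (64.5%). The counts on X were 53 and 24 with median scaling and 37 and 39 with quantile normalization, so that the direction turned with the latter. The labels do not give the sex of the embryos, and its part in the X-linked values was not tested.

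The E55 embryos were placed for each DEG between the mean of E45 (0%) and that of E65 (100%) in log2(RPKM + 0.1). The comparisons share their end points, so the positions are a description. They were taken on the values as deposited and were not repeated with other scalings. On these values the stage mean of the median RPKM over all listed genes was 4.15 at E45, 3.38 at E55 and 3.31 at E65. For the mean of the 3 E55 embryos the median position was 37.7% over the increased DEGs and 51.8% over the decreased DEGs. It lay nearer to E45 than to E65, within the range of both means, for 464 of the 813 increased DEGs (57.1%) and nearer to E65 for 229 (28.2%). For the 1530 decreased DEGs these numbers were 610 (39.9%) and 707 (46.2%). In 103 increased and 120 decreased DEGs the E55 mean lay beyond the E45 mean, on the side away from E65, and in 17 and 93 it lay beyond the E65 mean.

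The 3 E55 embryos differed in this position. Over the increased DEGs the median position was 66.0% in E55-1, 26.7% in E55-2 and 16.3% in E55-3, and over the decreased DEGs 65.9%, 39.8% and 50.1%. E55-1 was thus the farthest towards E65 in both directions, and the order of the other embryos differed between the directions. Among the E45 embryos, E45-1 stood at -6.26% over the increased and 11.4% over the decreased DEGs. The medians of the E65 embryos ran from 96.0% to 104.8% over both directions.

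**Figure D5:**
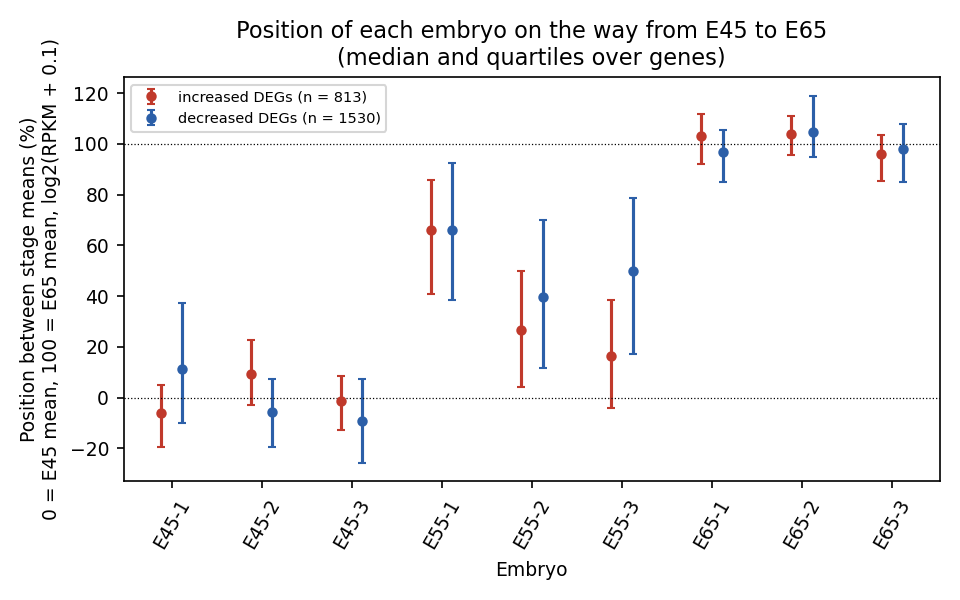
Points and bars give, for each of the 9 embryos, the median and the quartiles over genes of its position between the E45 mean (0%) and the E65 mean (100%) on the log2(RPKM + 0.1) scale, for 813 increased (red) and 1530 decreased DEGs (blue). E55-1 stands at about 66% for both, whereas E55-2 and E55-3 are at 26.7% and 16.3% over the increased and at 39.8% and 50.1% over the decreased DEGs.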

How the data were processed

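The study's methods state that reads were quality-filtered (FASTX-Toolkit) and mapped to the goat genome (TopHat, or TopHat2 in the submitters' processing notes, which also name edgeR). Reads that mapped to a single place were kept. The deposited values are RPKM with 2 decimals, which the authors call FPKM in their methods. The genome build is not given in the sources used here. All 9 RNA-seq columns were used, and the small RNA libraries were not analysed here.

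Since RPKM values are not counts, limma (3.58.1, R 4.3.3) was fitted to log2(RPKM + 0.1) of 16604 genes, with the stages of all 9 samples in the model, a mean-variance trend and Benjamini-Hochberg adjustment, and the E65 vs. E45 contrast was read. Values per sample were compared by exact permutation tests (scipy 1.17.1). The alternatives were other pseudocounts, filters, scalings, weights, a replicate block and each embryo left out. Named genes were the 2 largest increases and the 2 largest decreases among the DEGs. They had to have a mean of 1 RPKM or more over all 9 samples and no overlap of E45 and E65 values. The DEGs given by rank of abundance and chromosome were chosen after their values were seen. Runs of neighbouring genes were planned but not examined, as the table gives no positions. The members, lists and tests were chosen with earlier results of these data known, and the fit without E45-1 and E55-2 after seeing the values.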

Additional observations from a re-analysis of the deposited data

How the results depend on the processing

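The cause was not tested for any of these changes, unless one is named. With pseudocount 1 there were 968 decreased DEGs, 60.5% of all. The decreased share, 65.3% on the values as deposited, became 62.1% with a mean RPKM of at least 1, 69.6% with array weights and 53.8% with median scaling, and reversed to 42.5% with quantile normalization (1291 increased and 953 decreased). Without both E45-1 and E55-2 it was 73.5% (719 increased and 1999 decreased). Genes without overlap that were higher at E65 became 4618 with median scaling and 4248 with quantile normalization. When single embryos were left out, the increased DEGs ran from 585 to 808, the decreased from 897 to 1783 and their share from 55.4% to 71.6%. The genes without overlap ran from 2910 to 4032 higher and from 4078 to 5452 lower at E65 when 1 of the 6 E45 and E65 embryos was left out, as fewer samples have to separate.

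The labels do not say whether the replicate numbers pair the embryos. After subtracting stage means, the correlation of same-numbered E45 and E65 embryos was 0.00032, 0.15 and 0.039. Embryos with different numbers were not compared, so these values cannot decide whether the numbers pair the embryos. A fit with the replicate block gave 784 increased and 1511 decreased DEGs (65.8% decreased). Requiring 0.1 RPKM for detection gave 16569 genes at E45 and 15740.3 at E65, and requiring 1 RPKM gave 13316 and 12494, as a higher limit passes fewer genes. The share of summed RPKM was 7.30% at E45 and 8.59% at E65 in the 10 most abundant genes, where the stages overlapped (exact permutation test, p = 0.4) and E45-1, at 9.77%, lay above every E65 embryo, and it was 60.8% and 64.4% in the 1000 most abundant. The unknown number of reads behind a value limits what can be said of genes near 0 RPKM.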

Other observations

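The identifiers of the tested genes have 3 forms, which begin with GOAT_ENSBTAP, GOAT_ENSP and goat_GLEAN. The 7431 and 7112 genes of the first 2 forms had 5.19% and 5.05% increased and 8.52% and 9.27% decreased DEGs, while the 2061 genes of the GLEAN form had 3.30% increased and 11.5% decreased. The GLEAN genes were also less abundant, with a median of their mean RPKM of 1.40 against 8.17 and 8.65. Within the class of 1 to 10 RPKM, 18.0% of the 729 GLEAN genes were decreased, against 12.4% and 14.0% of the other forms, and within 10 to 100 RPKM 8.43% of the 356 GLEAN genes against 4.49% and 4.33%. In the class of 0.1 to 1 RPKM the share was lower, 8.14% against 11.1% and 13.0%, and at 100 RPKM and above it was 3.64% of 55 genes against 3.47% and 3.57%. A suffix of -D and a number marks 398 of the tested identifiers. Of these, 26 (6.53%) were increased and 50 (12.6%) decreased, against 4.86% and 9.13% of the genes without the suffix. The genes with the suffix were also less abundant, with a median of their mean RPKM of 3.58 against 7.34. The sources used here do not say what the suffix means.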
